A study of Mus musculus with 5 samples.

Results

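5 interferon-inducible genes of the mouse are described here, out of 11194 genes in the table: Gbp4, Gbp7 and Gbp9, which encode guanylate-binding proteins, Bst2, which encodes tetherin, and Isg15, which encodes a ubiquitin-like protein. They were taken by symbol, with it known that their values lay higher in the Staufen knockout libraries than in the wild type libraries. That contrast is therefore given for them as a description, with no test. The libraries hold RNA precipitated with an anti-Staufen1 antibody from skeletal muscle stem cells, the resident precursors of muscle fibres, which the study describes as quiescent. Staufen1 binds double-stranded stretches of RNA. 3 libraries came from mice labelled Stau+/+ (wild type) and 2 from mice labelled Stau-/- (knockout). The labels give no age, no treatment, no account of how the Staufen gene was disrupted and no statement that replicate libraries are separate animals, so p-values measure only the spread between these samples. All libraries are immunoprecipitates with no input RNA used here, so a count reflects both how abundant a transcript was and how well the antibody recovered it. In a knockout without Staufen1 the antibody has no target, and the RNA recovered is background. Whether the protein was absent was not measured here. Higher in knockout therefore means a larger share of the precipitated RNA, and levels in the cells were not measured.

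Interferons act through cell surface receptors and Janus kinases on STAT and IRF transcription factors, which bind short promoter elements and switch on a large set of antiviral genes. Guanylate-binding proteins are large GTPases of that set, induced above all by interferon gamma, which assemble on the membranes of intracellular pathogens and of the vacuoles that hold them. Tetherin holds budding enveloped viruses at the cell surface. Isg15 is joined to other proteins by the enzymes Uba7, Ube2l6 and, in the mouse, Herc6, and is removed by Usp18.

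Library totals ran from 33846391 to 105473455 counts in wild type and were 9370244 and 3091302 in knockout 1 and 2, so both knockout libraries were the shallower ones. The targeted gene, Stau1, was at 104.3 to 126.8 CPM in wild type and at 109.0 and 110.7 CPM in knockout (CPM is the count scaled by the TMM method to a common library total, so that libraries can be compared), so its RNA gave no check of the genotype labels. The groups are named by their labels, and each direction rests on them. Of 10 muscle stem cell markers all 10 were detected in every library, with a summed level of 4536 to 5206 CPM in wild type and of 2834 and 2999.6 CPM in knockout. One of them, the satellite cell transcription factor gene Pax7, was at 180.7 to 263.2 CPM over all libraries, with groups that overlapped. By edgeR's quasi-likelihood test at an adjusted p under 0.05, 3 of the 10 (Myod1, Sdc4 and Msc) were called higher in wild type and 0 in knockout. The shares of all genes were 1.05% and 1.00%. In 8 of the 10 every knockout library lay below every wild type library, as in 20.4% of all genes.

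The promoters of 3 of the 5 genes were among the RefSeq promoter sequences used here (build GRCm38.p6, 250 bases before and 50 after the start site), those of Gbp7, Bst2 and Isg15. All 3 hold the letters of the interferon-stimulated response element, searched as GAAA, any 2 bases and GAAA, or as its reverse complement, TTTC, any 2 bases and TTTC. The 100-base stretches around the matches are shown, with that of the neighbouring guanylate-binding protein gene Gbp3, because the element is the sequence through which type I interferon signalling is known to reach such genes. Capitals mark the matches, which overlap one another in Gbp3, Bst2 and Isg15, and each stretch is written 5′ to 3′ on the strand of the gene.
Gbp7, chr3:142530236-142530335, plus strand: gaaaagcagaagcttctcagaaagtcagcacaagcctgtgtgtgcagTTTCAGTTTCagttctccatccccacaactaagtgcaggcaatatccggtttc
Gbp3, chr3:142559944-142560043, plus strand: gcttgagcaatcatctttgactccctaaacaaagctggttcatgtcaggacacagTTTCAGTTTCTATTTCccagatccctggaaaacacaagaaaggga
Bst2, chr8:71537548-71537647, minus strand: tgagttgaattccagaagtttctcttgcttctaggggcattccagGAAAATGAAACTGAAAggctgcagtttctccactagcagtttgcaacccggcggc
Isg15, chr4:156200842-156200941, minus strand: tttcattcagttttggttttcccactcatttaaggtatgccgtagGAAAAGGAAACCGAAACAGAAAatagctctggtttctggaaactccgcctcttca

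The matches began 53 bases before the start site in Gbp7, 130 bases before it in Bst2 and 78 bases before it in Isg15. Isg15 held 3 matches, Bst2 and Gbp3 2 each, and Gbp7 1. Another promoter window of Gbp3 held 0. The promoters of the related genes Gbp2, Gbp2b and Gbp5 held 1 match each. Among interferon-related genes described below, those of Herc6 and Sp100 held 0, and Ifi203 held 1 in a window and 0 in another. The gamma-activated site, TTCNNNGAA, which reads the same on both strands, was found 2 times in the Gbp7 promoter, 1 time in the Bst2 promoter and not in those of Gbp3 or Isg15. On both strands of all 32851 promoter windows of the same length, 3.44% held the first motif and 8.30% the second. A match is a match of letters only, and whether a factor binds there was not measured.

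Gbp9 showed the largest difference of the 5 genes. Its gene lies on chromosome 5, from 105078394 to 105139539 on the minus strand (mm10). Wild type libraries 1 to 3 held 417, 181 and 350 counts of it and knockout libraries 1 and 2 held 330 and 84, which correspond to 4.03, 5.50 and 4.93 CPM against 34.6 and 26.7 CPM. The lowest knockout library was 4.85 times the highest wild type library. Group means were 4.82 ± 0.741 CPM (SD, n = 3) in wild type and 30.6 ± 5.54 CPM (SD, n = 2) in knockout, a fitted log2 fold change, wild type over knockout, of -2.68. With every library thinned to the depth of the shallowest, in a single random draw, it was -3.28. In knockout 2 the value rests on few counts, and its exact 95% Poisson interval ran from 21.3 to 33.1 CPM, which covers counting error only.

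Gbp4 lies next to Gbp9 on the same strand, from 105115767 to 105139586 on chromosome 5. Its counts in the wild type libraries were 734, 310 and 1297, and those in the knockout libraries were 356 and 111. These were 7.10, 9.43 and 18.3 CPM against 37.3 and 35.3 CPM. The wild type libraries were spread widely, with wild type 3 at more than the level of either other library, while the knockout libraries lay close together. The mean was 11.6 ± 5.89 CPM (SD, n = 3) in wild type and 36.3 ± 1.39 CPM (SD, n = 2) in knockout, which gave a log2 fold change of -1.65.

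**Figure D1:**
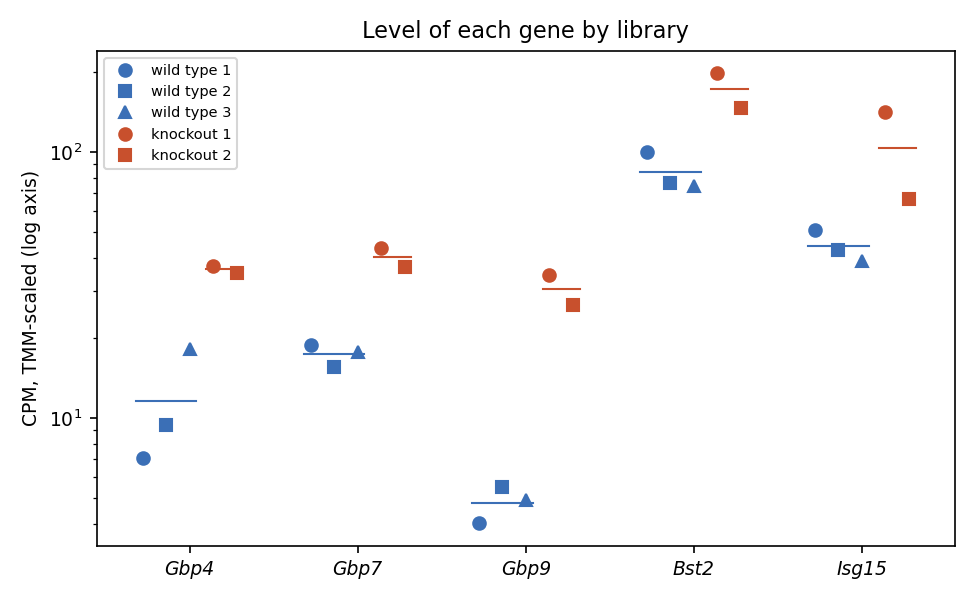
CPM of Gbp4, Gbp7, Gbp9, Bst2 and Isg15 in each library on a log axis; blue points are the 3 wild type libraries, red points the 2 knockout libraries, and horizontal lines the group means. In all 5 genes both knockout libraries lie above the wild type libraries, with the widest gap for Gbp9 and the narrowest for Isg15.

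Reads of Gbp4 and Gbp9 can be shared, since the genes overlap over 23773 bases. The overlap of their exons is small. The deposited model of Gbp9 has 12 exons, and the one at its 5′ end, from 105139480 to 105139539, lies inside the first exon of Gbp4; the other 11 exons lie beyond the 3′ end of Gbp4. The shared stretch of 60 bases is 1.62% of the exon bases of Gbp9 and 1.32% of those of Gbp4. RefSeq ends Gbp9 at 105110357 and does not include that exon. Guanylate-binding protein genes are also close in sequence, and how reads that fit several genes were counted is not given in the sources used here. With the counts of both genes summed before the fit, the log2 fold change of the pair was -2.03. Within each library, Gbp9 made up 36.2%, 36.9% and 21.3% of the counts of the pair in wild type 1 to 3 and 48.1% and 43.1% in knockout 1 and 2. That share does not depend on scaling between libraries, and it was higher in both knockout libraries than in any wild type library. It comes from the same counts by which the genes were chosen, so it is no separate support for a difference.

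**Figure D2:**
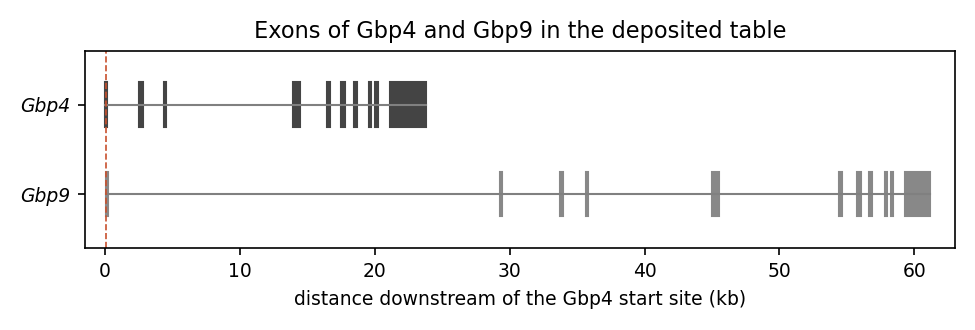
Exons (boxes) and introns (lines) of Gbp4 and Gbp9 as the deposited table gives them, by distance in kb downstream of the Gbp4 start site; short exons are widened so that they can be seen. The dashed line marks the start of the 60 shared bases, and the other exons of Gbp9 lie beyond the last exon of Gbp4.

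Gbp7 lies in the other guanylate-binding protein cluster, on chromosome 3 from 142530338 to 142550083 (plus strand). Its counts were 1951, 514 and 1256 in wild type and 416 and 116 in knockout, or 18.9, 15.6 and 17.7 CPM against 43.6 and 36.9 CPM. The wild type libraries were the closest together of the 5 genes relative to their level, and the lowest knockout library was 1.96 times the highest of them. Means were 17.4 ± 1.64 CPM (SD, n = 3) and 40.2 ± 4.71 CPM (SD, n = 2), with a log2 fold change of -1.21. No other gene of the table or of RefSeq overlapped it.

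Bst2, on chromosome 8 from 71534264 to 71537437 (minus strand), had the highest counts of the 5, namely 10386, 2520 and 5317 in wild type and 1892 and 463 in knockout, which gave 100.5, 76.6 and 74.9 CPM against 198.1 and 147.3 CPM. Knockout 2 was 1.47 times the highest wild type library. Means were 84.0 ± 14.3 CPM (SD, n = 3) and 172.7 ± 35.96 CPM (SD, n = 2). At -1.04, its log2 fold change was the smallest of the 5. No overlapping gene was found.

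Isg15, on chromosome 4 from 156199424 to 156200818 (minus strand), differed most between the knockout libraries. It had 5261, 1414 and 2765 counts in wild type and 1347 and 210 in knockout, or 50.9, 43.0 and 39.0 CPM against 141.1 and 66.8 CPM. Knockout 2 was 1.31 times the highest wild type library, the narrowest gap of the 5. Knockout 1 was 2.11 times knockout 2, a ratio that was 1.06 to 1.35 for the other 4 genes. The 95% Poisson intervals of the knockout libraries, 133.6 to 148.8 and 58.1 to 76.5 CPM, did not meet. Wild type averaged 44.3 ± 6.07 CPM (SD, n = 3) and knockout 103.9 ± 52.5 CPM (SD, n = 2). The log2 fold change of -1.25 was -0.59 without knockout 1 and -1.67 without knockout 2. 80 bases of Isg15, 10.6% of its exon bases, lie under the noncoding gene Gm46878 of RefSeq, and the strand setting of the counting is not given.

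In all 5 genes every knockout library was above every wild type library, as was the case for 18.1% of all genes, while 20.4% had every knockout library below. Because the genes were chosen from this contrast, nothing is read from that count. All 5 are in a table from which low genes had been left out before deposit. The third highest of the 5 libraries was at 3.02 CPM or more in each of its 11194 genes, so none had counts in the knockout libraries alone.

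Levels of different genes can be compared only per length. In CPM per kilobase of exon, the wild type order was Bst2 (110.0 ± 18.7, SD, n = 3), Isg15 (58.6 ± 8.03), Gbp7 (3.13 ± 0.295), Gbp4 (2.56 ± 1.30) and Gbp9 (1.31 ± 0.201). Gbp7 and Gbp4 were not separated beyond their spread. In knockout the order was Bst2 (226.1 ± 47.1, SD, n = 2), Isg15 (137.5 ± 69.5), Gbp9 (8.30 ± 1.501), Gbp4 (7.998 ± 0.307) and Gbp7 (7.25 ± 0.849). Gbp9 was thus the lowest of Gbp4, Gbp7 and Gbp9 in each wild type library. In knockout the means of the 3 were within their spread of one another, and Gbp7 was the lowest of them in both libraries. Bst2 lay above Isg15 within each knockout library, at 259.3 against 186.6 in knockout 1 and 192.8 against 88.4 in knockout 2. Precipitated RNA was primed with oligo(dT), so coverage need not be even along a transcript, and levels per length carry that limit.

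The course of the values over the 5 libraries was compared as the root mean square difference between log2 CPM profiles, each centred on the middle of its group means. Gbp7 and Bst2 were the most alike pair of the 5, at 0.15, followed by Bst2 and Isg15 at 0.22 and Gbp7 and Isg15 at 0.29. Gbp4 and Gbp9, the overlapping genes, stood at 0.61, and Gbp9 and Bst2 were the least alike at 0.86. Among all genes with a symbol, the profile nearest to that of Bst2 was the one of Fabp5, a fatty acid binding protein, at 0.03. For Gbp9 it was that of Pde9a, a cyclic GMP phosphodiesterase, at 0.14, and the next, those of the TRAIL receptor gene Tnfrsf10b and of the malic enzyme gene Me1, were at 0.34 and 0.38. For Gbp7 the nearest were the noncoding gene Gm5532 (0.11), Npr1, a natriuretic peptide receptor (0.11), and Sp100, an interferon-inducible component of PML nuclear bodies (0.12). For Isg15 they were Sncg, Akap12 and Cadm3, at 0.10 to 0.11, and for Gbp4 Rapgef4, Ulk4 and Lilrb4a, at 0.17 to 0.20. After Fabp5, those nearest to Bst2 were Ajuba and Trpv4, both at 0.08. These distances are descriptions over 5 libraries. Many genes lay within 0.2 of Bst2 (69) and Gbp7 (55), fewer of Isg15 (15), and few of Gbp4 (4) and Gbp9 (1, Pde9a).

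The other guanylate-binding protein genes did not pass the edgeR test. Of 8 listed, 4 were in the table analysed here, and 0 of the 4 were called in either direction by edgeR's quasi-likelihood test at an adjusted p under 0.05. At an unadjusted p under 0.05, 2 lay higher in knockout, beside 9.99% of all genes. DESeq2 called 1 of the 4, Gbp6, and limma-voom 0, beside 4.08% and 0.125% of all genes in that direction. Gbp2, the one with the highest counts, had 58.4, 46.0 and 64.1 CPM in wild type and 82.1 and 49.6 CPM in knockout, so the groups overlapped (log2 fold change -0.24, SE 0.25, edgeR adjusted p = 0.627).

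Gbp6, in the cluster of Gbp4 and Gbp9, had 4.12, 3.95 and 6.72 CPM against 12.0 and 13.4 CPM (log2 fold change -1.36, SE 0.44, edgeR adjusted p = 0.103). Gbp3, the neighbour of Gbp7, had 11.5, 5.53 and 9.65 CPM against 22.0 and 15.9 CPM (-1.10, SE 0.38, edgeR adjusted p = 0.128). In both genes the knockout libraries lay above the wild type libraries, although neither passed edgeR's test. DESeq2 gave Gbp6 an adjusted p of 0.0360 and did not call Gbp3. The row named Gbp2b had 6.83, 13.8 and 6.14 CPM against 23.8 and 9.23 CPM (-0.93, SE 0.46, edgeR adjusted p = 0.270), and its groups overlapped. Its exons in the table, on chromosome 3 from 142496934 to 142522344, lie at the RefSeq position of Gbp5 and not at that of Gbp2b, so which of these genes the row measures is uncertain. Whether any of the 5 described genes differed more than these 4 was not tested.

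**Figure D3:**
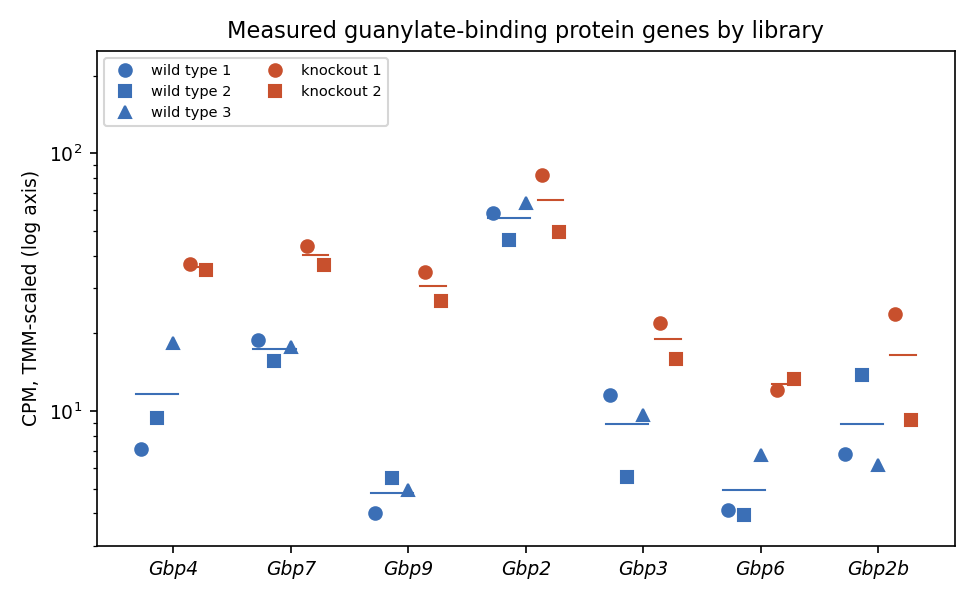
CPM of the measured guanylate-binding protein genes in each library on a log axis; blue points are the 3 wild type libraries, red points the 2 knockout libraries, and lines the group means. Gbp2 and the row named Gbp2b overlap between groups, and the row named Gbp2b lies at the RefSeq position of Gbp5.

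Interferon-related genes beyond the 5 were described through 7 lists by role, with 104 genes, of which 77 were in the table analysed here. 3 of the 77 were called higher in knockout and 0 in wild type by edgeR's quasi-likelihood test, beside 1.00% and 1.05% of all genes tested. At an unadjusted p under 0.05 the counts were 24 and 4, beside 9.99% and 10.4% of all genes, while DESeq2 called 13 and 0, beside 4.08% and 3.87% of all genes, and limma-voom 0 and 0, beside 0.125% and 0.0715%. All knockout libraries lay above all wild type libraries in 29 of the 77 (37.7%) and below them in 9, to be read against the 18.1% and 20.4% of all genes. The median log2 fold change of the 77 was -0.28, and 57 were below 0, beside a median of 0.00 and 5567 of 11194 genes below 0 over the whole table.

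The 3 called genes had different roles. Herc6, which joins Isg15 to its targets in the mouse, had 39.9, 59.4 and 45.8 CPM in wild type and 94.7 and 90.7 CPM in knockout (log2 fold change -0.94, SE 0.22, edgeR adjusted p = 0.0431). Sp100 had 13.3, 11.1 and 15.6 CPM against 33.8 and 29.6 CPM (-1.25, SE 0.28, edgeR adjusted p = 0.0403). Ifi203, a member of the interferon-inducible HIN-200 family, had 19.9, 27.5 and 16.9 CPM against 56.3 and 46.4 CPM (-1.27, SE 0.26, edgeR adjusted p = 0.0272). In all 3 the knockout libraries lay above the wild type libraries. Ifi203 shares 37 exon bases with its neighbour Mndal and belongs to a family of near-identical genes, so its count is uncertain. The calls changed with single libraries: the edgeR test called 0 of the 77 genes when wild type 1, wild type 3 or knockout 1 was left out. It called 3 without wild type 2, Herc6 and Ifi203 among them, and 6 without knockout 2, of which only Ifi203 was among the 3. With any 1 library left out, the log2 fold change ran from -1.11 to -0.83 for Herc6, from -1.39 to -1.14 for Sp100 and from -1.49 to -1.12 for Ifi203. Over all genes, those called higher in knockout fell from 112 to 40 without wild type 1 and to 23 without wild type 3, and numbered 97 without knockout 1.

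By role, edgeR called 1 of 5 genes of Isg15 conjugation and removal (Herc6) higher in knockout. It also called 1 of 31 antiviral effectors (Sp100) and 1 of 9 nucleic acid sensors and adaptors (Ifi203), beside 1.00% of all genes. Log2 fold changes were below 0 in 3, 28 and 5 genes of these lists, beside 5567 of all 11194 genes. The list medians were -0.51, -0.40 and -0.14. Among 6 immunity-related GTPases, relatives of the guanylate-binding proteins that also act on pathogen vacuoles, 0 were called by edgeR, 2 had an unadjusted p under 0.05, and DESeq2 called 2 and limma-voom 0. Toward knockout, the matching shares of all genes were 1.00%, 9.99%, 4.08% and 0.125%. Iigp1 was at -1.40 (edgeR adjusted p = 0.0712), Igtp at -0.97 (0.0842) and Tgtp2 at -1.03 (0.246), with a list median of -0.88; Igtp shares 162 exon bases with Irgm2.

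The signalling genes were mixed. Of 18 receptors, kinases and transcription factors, 0 were called by edgeR, 5 at an unadjusted p under 0.05 lay higher in the knockout and 4 lay lower. DESeq2 called 2 higher in knockout and limma-voom 0. The unadjusted shares of all genes were 9.99% toward knockout and 10.4% toward wild type. Toward knockout, DESeq2 called 4.08% of all genes and limma-voom 0.125%. The list median was 0.09. Stat2, a transcription factor of the type I interferon response, had 54.1, 105.3 and 67.6 CPM in wild type and 156.6 and 145.1 CPM in knockout (-0.998, edgeR adjusted p = 0.0544). Irf7, a factor that amplifies interferon production, was at -0.89 (edgeR adjusted p = 0.0613). Irf8, a factor of myeloid cells, lay the other way at 0.66 (edgeR adjusted p = 0.117). Of 4 measured chemokines and checkpoint ligands 0 were called by edgeR, DESeq2 or limma-voom. At an unadjusted p under 0.05, 1 lay higher in knockout, beside 9.99% of all genes. Cd274, the ligand PD-L1, was at -0.95, Cxcl9 at -0.81 and Cxcl10 at 0.32, with edgeR adjusted p of 0.197, 0.313 and 0.472; all exon bases of Cxcl10 lie within the span of Art3 in RefSeq. The listed interferon genes themselves, Ifnb1, Ifna4 and Ifng, were not among the rows analysed.

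**Figure D4:**
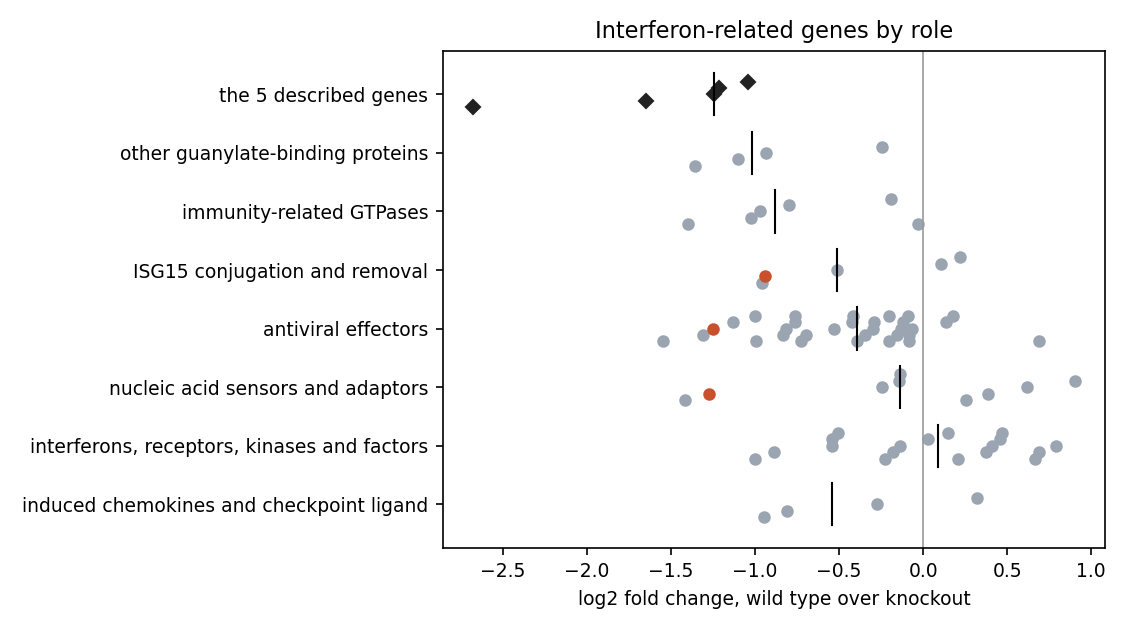
Fitted log2 fold change, wild type over knockout, of each measured gene by role; black diamonds are the 5 described genes, red points the 3 list genes called by edgeR, grey points the other list genes, and vertical lines the medians. Among the lists, without the 5 described genes, the medians run from -1.02 for the other guanylate-binding proteins to 0.09 for receptors, kinases and factors.

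As for Isg15, knockout 1 was more often the higher of the knockout libraries over these lists. It was above knockout 2 in 54 of the 77 list genes (70.1%), beside 49.4% of all genes. It was so in 6 of 6 immunity-related GTPases, whose summed level was 201.2 CPM in knockout 1 and 112.3 CPM in knockout 2, beside 93.7 to 112.2 CPM in wild type. The summed level of the 5 described genes was 454.6 CPM in knockout 1 and 313.0 CPM in knockout 2, beside 150.2 to 181.4 CPM in wild type. These genes were picked with groups that do not overlap, so a sum above the wild type range follows from that choice.

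Genes were also grouped by whether their promoter held the interferon-stimulated response element, and the difference between these groups was not tested. Leaving out the 5 described genes, 305 tested genes held it, of which 3 (0.984%) were called higher in knockout and 2 in wild type by edgeR's quasi-likelihood test. Of 8358 tested genes with a promoter sequence and no match, 70 (0.838%) were called higher in knockout and 88 in wild type. Median log2 fold changes were 0.02 with the element and 0.01 without it. All knockout libraries lay above all wild type libraries in 19.0% of the genes with the element and in 17.5% of those without it. Among the interferon list genes, 23 held the element, with a median of -0.24, and 36 did not, with a median of -0.31.

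Other cell types can also carry these transcripts, and some of their markers moved with the groups. The marker counts are to be read against the whole table, where edgeR called 1.00% of genes toward knockout and 1.05% toward wild type. With an unadjusted p under 0.05 as the limit, these shares were 9.99% and 10.4%. Of 20 endothelial markers, 6 were called higher in knockout and 0 in wild type by edgeR's quasi-likelihood test (15 and 0 at an unadjusted p under 0.05). In 15 of the 20 every knockout library lay above every wild type library, as in 18.1% of all genes. Their median log2 fold change was -0.77, and their summed level was 2054 to 2840 CPM in wild type against 4346 and 4027 CPM in knockout. The 14 measured of 18 leukocyte markers had 0 calls (1 at an unadjusted p under 0.05, in wild type), and their sum was 403.7 to 653.9 CPM in wild type and 666.9 and 651.2 CPM in knockout. Of 5 measured markers of red blood cells, 3 were called higher in knockout (4 at an unadjusted p under 0.05). Their sum was 220.8 to 300.9 CPM in wild type and 481.9 and 824.9 CPM in knockout. The sum of 8 muscle fibre markers was 514.2 to 612.9 CPM in wild type, 402.5 CPM in knockout 1 and 2550.1 CPM in knockout 2, and 1 of the 8, Casq1, was called higher in knockout (7 at an unadjusted p under 0.05). Of 10 markers of fibro-adipogenic progenitors 1 was called higher in knockout and 2 in wild type (2 and 4 at an unadjusted p under 0.05). Their sum was 2052 to 2980.3 CPM in wild type and 1519 and 1618 CPM in knockout. Of 8 markers of pericytes and smooth muscle 0 were called (2 at an unadjusted p under 0.05, both higher in knockout), and their sum was 873.0 to 1094 CPM in wild type and 1150.3 and 1337 CPM in knockout. No measured marker of any of these lists was at 0 in any library. The number of cells of a type, the RNA per cell and the recovery by the antibody cannot be told apart in these immunoprecipitates. The part of these cell types in the levels of the 5 genes was not tested.

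**Figure D5:**
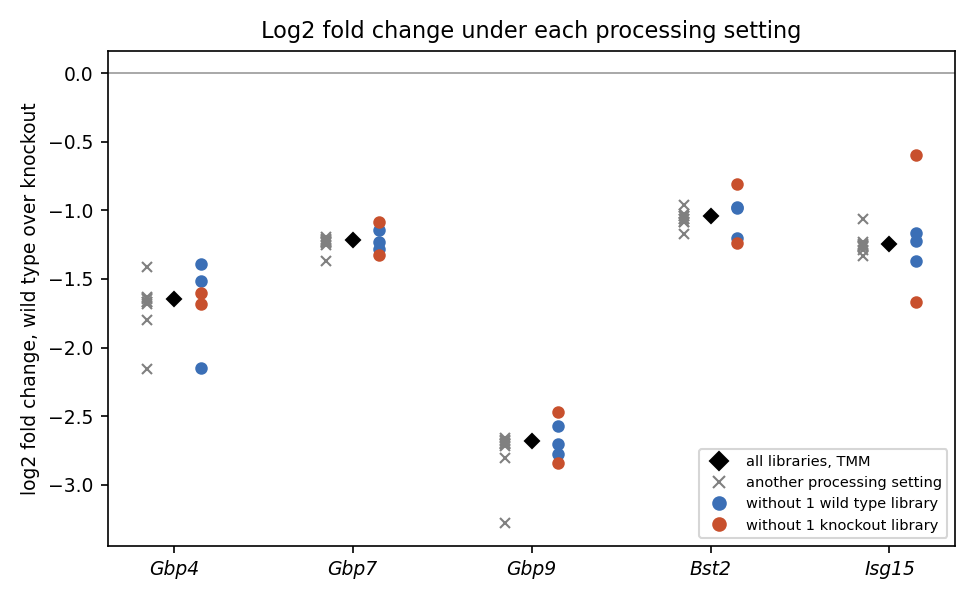
Fitted log2 fold change, wild type over knockout, of each of the 5 genes: black diamonds with all libraries and TMM scaling, grey crosses under another processing setting, and coloured points with 1 wild type (blue) or 1 knockout (red) library left out. All values lie below 0; Isg15 spans the range from -1.67 without knockout 2 to -0.59 without knockout 1, and the lowest value of Gbp9, -3.28, came from thinned counts.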

How the data were processed

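Raw counts over the exons of each gene, with exon coordinates and gene lengths, were taken from the deposited table. The tools named in the submitters' processing notes are STAR, Trim Galore, edgeR and featureCounts (Subread), with the build mm10. Tool versions, the strand setting and the annotation release are not given in these sources. Of 10826 Entrez identifiers, 10824 matched RefSeq (GRCm38.p6).

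The counts as deposited were fitted over all 11194 genes in R 4.3.3 with edgeR 4.0.16 (filterByExpr, which removed none, TMM, glmQLFit, two-sided glmQLFTest, Benjamini-Hochberg, threshold 0.05), and the fit was tested on simulated data. Alternatives used DESeq2 1.42.0, limma 3.58.1, other scaling and filters, thinned counts, and each library left out. Profiles used log2 CPM with a prior count of 2. A count of 0 allows up to 3 counts, which is 0.954 CPM in knockout 2 and 0.0290 CPM in wild type 1; such limits and Poisson intervals cover counting error only. Replicates differed beyond sampling noise (chi-square per degree of freedom 17.7 to 258.5).

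The genes, lists and tests were chosen with earlier results of these data known. The text names the 5 genes, Stau1, overlapping genes, all measured guanylate-binding proteins, called list genes or up to 3 of smallest p per list without a call, and the 3 nearest profiles per gene. Motifs and the comparison of knockout libraries were added after the values were seen.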

Additional observations from a re-analysis of the deposited data

How the results depend on the processing

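The log2 fold changes of Gbp4, Gbp7, Gbp9, Bst2 and Isg15 were below 0 in all 70 values over 14 alternatives per gene, and 67 of them moved by less than the spread between replicates. The genes were picked with groups that do not overlap, so a kept direction is no sign of stability. The exceptions were Gbp7 at -1.37 and Gbp9 at -3.28 with every library thinned to the shallowest, and Isg15 at -0.59 without knockout 1. Thinning was a single random draw, and the cause was not tested. With 1 library left out, values ran from -2.15 to -1.39 for Gbp4, -1.32 to -1.08 for Gbp7, -2.84 to -2.47 for Gbp9, -1.24 to -0.81 for Bst2 and -1.67 to -0.59 for Isg15. Where a single knockout library remained, its spread was taken from the wild type libraries.

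Counts of calls moved more. Genes called higher in knockout and in wild type numbered 112 and 118 with all libraries, 457 and 433 with DESeq2, and 14 and 8 with limma-voom. After thinning, 178 were higher in knockout. With 1 library left out they ran from 23 to 172 and from 11 to 176. Interferon list genes called higher in knockout numbered 3, and 13 with DESeq2, 0 with limma-voom, 6 after thinning and 0 to 6 with 1 library left out. With a replicate block in the fit, 324 and 288 genes and 8 interferon list genes were called. The labels do not say that the numbers pair libraries. Deviations from the group means of same-numbered libraries correlated at 0.0496 and 0.0401. With 2 knockout libraries, the deviations of one mirror those of the other, so these values cannot decide whether libraries are paired. RLE factors, upper-quartile factors, library totals, no filter and a minimum of 10 counts kept every count within 1.5 times. The depth of knockout 2, with 522 genes under 10 counts, limits the rarer genes most.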
